A study of Drosophila melanogaster with 46 samples.

Results

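Small RNAs that precipitated with CG9754 were compared with those that precipitated with Piwi, over the 124 transposable elements (TEs) of a deposited table, on each strand and in the ratio of the strands. The cells were Drosophila melanogaster ovarian somatic cells (OSC), a cultured line derived from the follicle cells of the ovary. The comparison rests on 4 of the 46 samples of the series: 2 libraries of a CG9754 immunoprecipitate (CG9754-IP) and 2 libraries of a Piwi immunoprecipitate (Piwi-IP). A further 2 libraries of small RNAs taken without precipitation (Input) give the level in the cells and share the estimate of the spread. The labels give no knockdown, tag or antibody for these 6 libraries, although the protocol shared by the series speaks of siRNA transfection. No mock precipitate was used here, so RNA that sticks to beads or antibody was not measured apart. The labels do not say whether replicate libraries stem from separate cultures, so p-values measure only the spread between these libraries, which may be technical.

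In the Piwi pathway, short piRNAs guide the Argonaute protein Piwi into the nucleus, where nascent TE transcripts that pair with the guide are silenced by heterochromatin. A guide has to be antisense to the TE to pair with its transcript, and in follicle cells most guides are cut from long transcripts of the flamenco locus, whose inserted TEs lie mostly in the antisense direction. Sense small RNAs carry the same letters as the TE transcript itself. CG9754, named Silencio in the series and also known as Panoramix, is a nuclear protein of this pathway that acts with Piwi in transcriptional silencing and is not itself an Argonaute. The comparison therefore asks how the small RNAs recovered through such a partner protein relate to those held by Piwi.

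Levels are given in RPM, the reads of a TE per 1000000 reads of its library. The implied totals were 15064800 and 12493500 reads for Piwi-IP, 26138400 and 19874200 for CG9754-IP, and 18861900 and 15327200 for Input, and 3 reads, the limit that a count of 0 allows, correspond to 0.115 to 0.240 RPM. TEs took 25.2% and 24.9% of the total in the Piwi-IP libraries, 20.0% and 19.3% in the CG9754-IP libraries and 22.4% in each Input library; the small RNAs in the rest of each library were not analysed here. A TE was tested with limma where its mean over the 6 libraries reached 10 RPM, on log2(RPM + 1); a Benjamini-Hochberg adjusted p under 0.05 was the threshold. For the strand ratio, log2((sense + 1)/(antisense + 1)), the sum of both strands had to reach 10 RPM. Fold changes on this scale understate those of low TEs. Of the 124 TEs, 45 were tested on both strands, 30 on the antisense strand alone, 8 on the sense strand alone and 41 on neither, of which 6 were tested for the ratio.

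The strand that was rare in the cells took a larger share of a TE's small RNAs in the CG9754 precipitate than in the Piwi precipitate. In the 89 TEs tested for the ratio, the less abundant strand in Input held a median share of 4.53% before precipitation, 4.25% among Piwi-IP small RNAs and 7.95% among those of CG9754-IP. Both CG9754-IP libraries lay above both Piwi-IP libraries in this share for 66 TEs (74.2%), below them for 7 (7.87%), and overlapped for 16. By limma, the ratio of sense to antisense was higher in CG9754-IP for 52 TEs (58.4%) and lower for 18 (20.2%), with a median log2 difference of 0.61. Of these 70 calls, 64 moved toward the strand that was rare in Input and 6 moved away from it. Some of the 64 had nearly balanced strands in Input: the rare strand held 46.3% in FB4, 44.7% in hopper2 and 41.4% in G4. Their ratio calls were lost in 6, 6 and 5 of 14 alternative fits. Where sense was the rare strand, 49 of 64 TEs moved toward sense and 3 away; where antisense was rare, 15 of 25 moved toward antisense and 3 away. The split by strand used Input, which is in neither of the compared groups. Input does share the spread of the limma fit, and the filter took the mean of all 6 libraries, so the split is not fully separate from the tests.

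On the log2 scale, the difference of the strand ratio followed the strand bias in Input. Among TEs that were at least 99% antisense there, 26 of 29 had a higher ratio in CG9754-IP and 0 a lower one, and the median log2 difference was 2.35. Among those 90 to 99% antisense, 14 of 16 were higher and 1 lower, with a median of 0.96. Between 50 and 90%, 9 of 19 were higher and 2 lower, with a median of 0.38. Among TEs under 50% antisense, which are mostly sense, 3 of 25 were higher and 15 lower, with a median of −0.68. In the first bin the summed signal of its TEs was 0.137% and 0.134% sense in the Piwi-IP libraries and 1.19% and 1.16% in the CG9754-IP libraries. In the last bin it was 91.2% and 90.7% sense in Piwi-IP and 82.9% and 78.9% in CG9754-IP. Input lay close to Piwi-IP in both, at 0.153% and 0.149% in the first and 90.5% and 90.3% in the last.

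**Figure D1:**
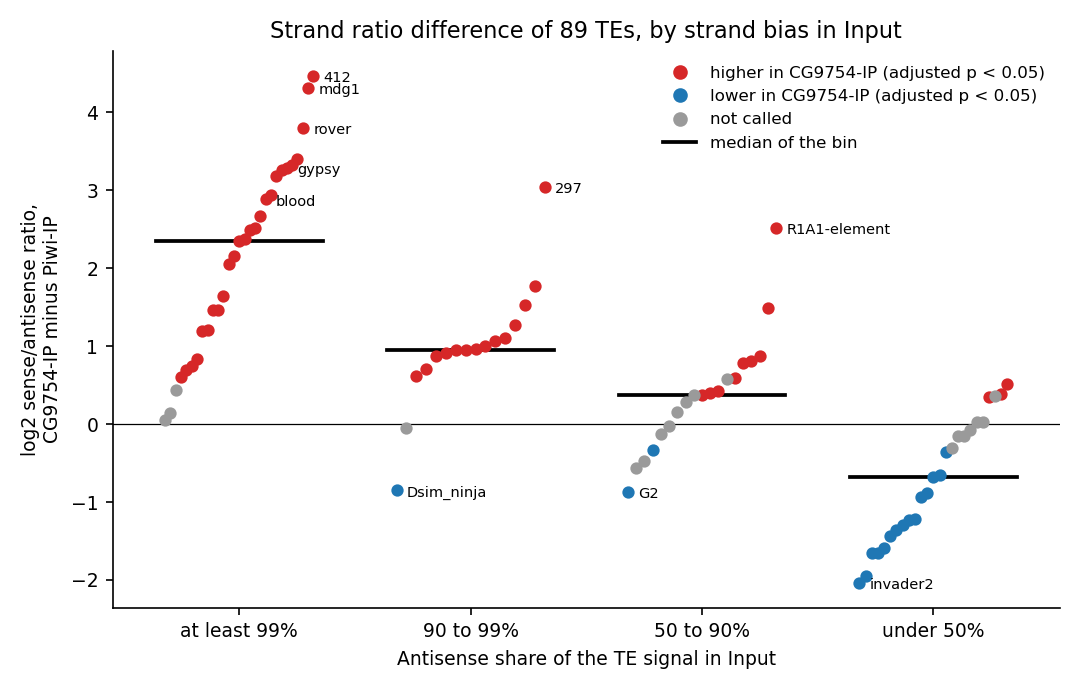
Difference of the log2 sense to antisense ratio between CG9754-IP and Piwi-IP (vertical axis, log2) for 89 TEs grouped by the antisense share of their signal in Input (horizontal axis). Each point is 1 TE, spread sideways in order of its value, colours give the limma call, and bars are bin medians, which run from 2.35 in the bin of at least 99% antisense to −0.68 in the bin under 50%.

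The median ratio in the first bin depends in part on TEs with almost no sense small RNAs. In 7 of its 29 TEs (accord, Bica, Fw3, G6, gypsy11, Helena and Tirant) the sense mean was under 1 RPM in both precipitates, and 5 of these had a called ratio. There the pseudocount of 1 RPM sets the sense term and the antisense level moves the ratio: Tirant, an endogenous retrovirus, had 0 RPM sense in both Piwi-IP libraries and 0.0765 and 0.101 RPM in the CG9754-IP libraries, both under the limit of 3 reads, while its antisense level was 47.1 and 47.9 against 12.8 and 25.5 RPM. The raw sense share, which needs no pseudocount, was higher in both CG9754-IP libraries for 26 of the 29 TEs and overlapped for 3. The 26 still include accord, Bica, G6 and Tirant, whose sense means were under 1 RPM in both precipitates. In Bica the sense mean itself was slightly lower in CG9754-IP (−0.056 RPM). With a pseudocount of 10 RPM the bin's median log2 difference was 1.26, still the highest of the 4 bins.

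The TEs at the antisense end are mainly LTR retrotransposons of the Ty3/gypsy superfamily, many of them represented in flamenco. The element named 412, the most abundant antisense TE in Piwi-IP, was 0.00993% and 0.00922% sense in the Piwi-IP libraries, and 0.291% and 0.243% in the CG9754-IP libraries. Its sense level was 3.72 and 3.44 RPM in Piwi-IP against 79.2 and 57.3 RPM in CG9754-IP, and 3.71 and 3.85 RPM in Input. The 4 other libraries thus lay close together and both CG9754-IP libraries stood far above them (log2 ratio difference 4.47 ± 0.12 SE, limma adjusted p = 8.2e-07). Names such as 412, 297, 17.6, 1731 and 1360 are names of elements, not values.

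For mdg1, an LTR element related to 412, the sense share was 0.0578% in each Piwi-IP library and 1.19% and 1.25% in the CG9754-IP libraries (log2 ratio difference 4.31). Rover, a gypsy-group element, held 0.0419% and 0.0365% in Piwi-IP against 0.564% and 0.680% in CG9754-IP (3.80). The share of gypsy, an endogenous retrovirus with an envelope gene that is controlled by flamenco, was 0.417% and 0.456% in Piwi-IP and 4.35% and 3.99% in CG9754-IP (3.29). In each of these elements the groups stood apart and the difference was many times the gap between libraries of a group. A gypsy-group element of the next bin, 297, had 1.06% and 0.955% sense in Piwi-IP against 8.09% and 7.87% in CG9754-IP (3.05), and 1.56% and 1.55% in Input.

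Several TEs of the flamenco type were too low on the sense strand to be tested there, but not for the ratio. Gtwin was the second most abundant antisense TE in Piwi-IP; its sense level was 1.93 and 1.28 RPM there and 19.4 and 21.7 RPM in CG9754-IP (log2 ratio difference 3.26). Idefix had 1.26 and 1.92 RPM sense in Piwi-IP against 11.9 and 13.8 RPM (3.32), and ZAM had 1.39 and 1.201 against 9.79 and 10.4 RPM (2.94). Gypsy5 was listed with 0.199 and 0 RPM sense in Piwi-IP and with 2.64 and 2.87 RPM in CG9754-IP, beside antisense levels of 10732 and 10901 against 7028 and 6199 RPM. All of these low sense levels stood above those of Piwi-IP and Input, yet they remained a small part of the antisense level of the same element.

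The sense gain was not in proportion to the antisense level. As a percentage of the mean antisense level in Piwi-IP, the added sense RPM came to 4.38 for gypsy, 2.89 for blood, an LTR element of the mdg1 type, and 1.56 for 17.6, a gypsy-group element. It was 0.710 for mdg1, 0.173 for 412, 0.0539 for gtwin and 0.0245 for gypsy5. Gtwin and 412 had similar antisense levels in Piwi-IP, at means of 35163 and 37378 RPM, and gypsy had a mean of 15421 RPM, so the order of the gains did not follow the order of the levels.

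**Figure D2:**
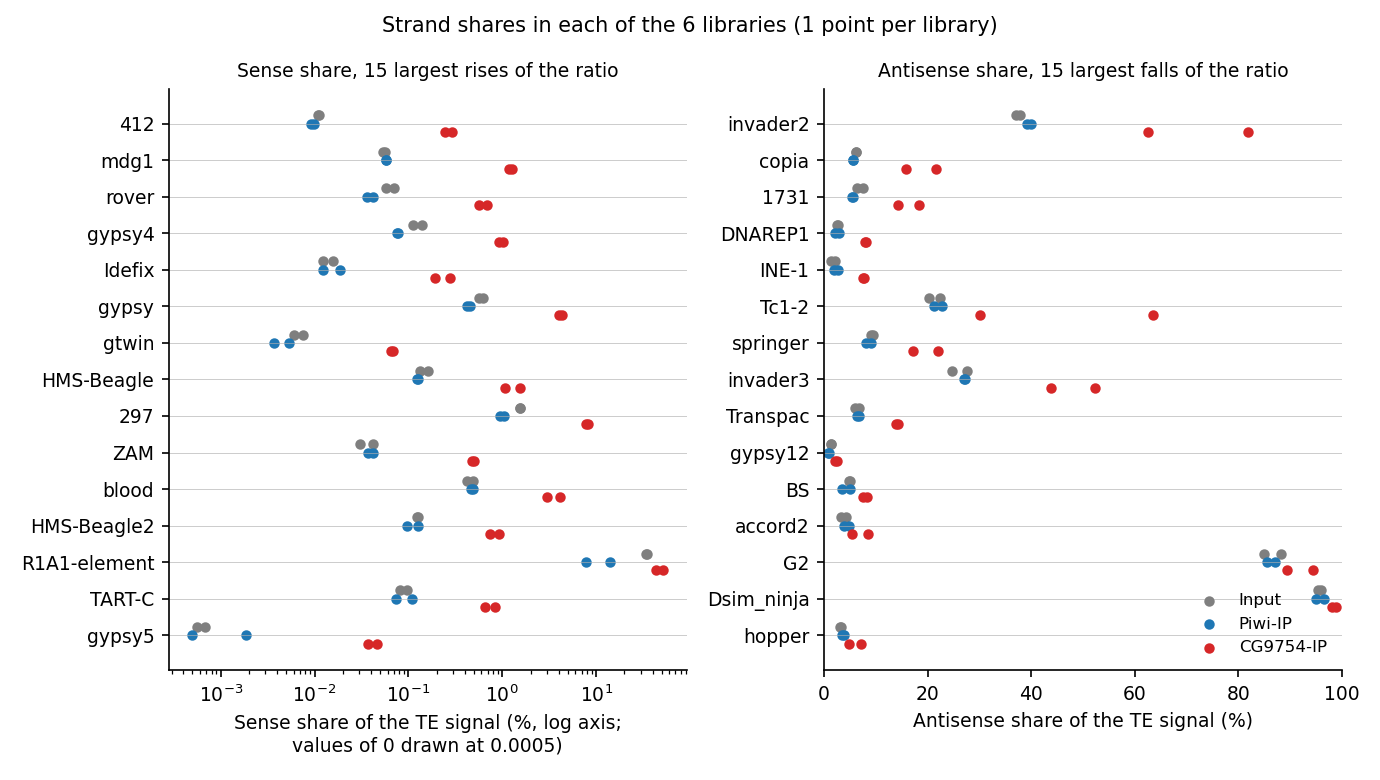
Strand shares in each of the 6 libraries (1 point per library: Input grey, Piwi-IP blue, CG9754-IP red), for the 15 TEs with the largest called rises of the sense to antisense ratio (left, sense share in percent on a log axis) and the 15 with the largest falls (right, antisense share in percent). The strand shown was the rare one in Input except for G2 and Dsim_ninja on the right, which were 86.6% and 95.7% antisense there. Input and Piwi-IP points lie close together for most TEs, as for 412 near 0.01%, and the CG9754-IP points lie to their right; R1A1-element is an exception, with Input well above Piwi-IP.

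TEs that were mostly sense shifted in the opposite direction. Copia, the type element of the copia superfamily of LTR retrotransposons, was 5.52% and 5.58% antisense in the Piwi-IP libraries and 15.8% and 21.7% in the CG9754-IP libraries (log2 ratio difference −1.94 ± 0.20 SE, limma adjusted p = 2.8e-04). Its antisense level was 93.9 and 100.1 RPM in Piwi-IP against 453 and 590 RPM in CG9754-IP, and 103 and 107 RPM in Input. Springer, a gypsy-group element and the most abundant sense TE, was 8.18% and 9.05% antisense in Piwi-IP and 17.1% and 22.0% in CG9754-IP (−1.36). Both elements were higher in CG9754-IP on both strands, with the larger fold on the antisense strand (copia log2 2.40 against 0.46, springer 2.02 against 0.66) and the larger gain in RPM on the sense strand. The copia-type element 1731 was 5.47% and 5.66% antisense in Piwi-IP and 14.2% and 18.3% in CG9754-IP (−1.66), but here sense fell while antisense rose: sense levels were 224 and 218 RPM in Piwi-IP against 137 and 120 RPM, and antisense levels 12.9 and 13.1 against 22.8 and 26.9 RPM.

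Among DNA transposons, INE-1, a short Helitron-type element present in many copies, was 2.00% and 2.73% antisense in Piwi-IP and 7.47% and 7.69% in CG9754-IP (log2 ratio difference −1.59). DNAREP1, a consensus of the same kind, had 2.10% and 2.86% against 7.83% and 8.07% (−1.65). These names belong to closely related sequences, and reads may have been counted for both, so they are not independent. Transpac, an LTR element of the Ty3/gypsy superfamily, had 6.30% and 6.67% antisense in Piwi-IP against 13.8% and 14.3% (−1.23). Its antisense difference did not pass as deposited (log2 0.37, limma adjusted p = 0.0801) but passed as higher on a common TE total (0.72) and by the median ratio (0.59). Without CG9754-IP replicate 2 the antisense log2 difference was 0.56, which rests on 1 CG9754-IP library. The sense level of Transpac fell, from 692 and 704 RPM to 446 and 331 RPM. In invader2, an LTR element, the strand order was turned: antisense held 39.9% and 39.1% in Piwi-IP and 82.0% and 62.6% in CG9754-IP (−2.03). Its sense levels, 83.8 and 85.0 against 26.0 and 19.1 RPM, carried that shift, since its antisense levels of 118 and 32.0 RPM in CG9754-IP lay on either side of the 55.6 and 54.7 RPM of Piwi-IP.

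The 6 TEs that moved away from their rare strand were of moderate or low level, and all but Dsim_ninja lost the ratio call in 2 to 10 of the 14 or 15 alternative fits in which they were tested. Cr1a, Chimpo and 3S18, which were mostly sense in Input, became more so, with log2 ratio differences of 0.35, 0.52 and 0.38. Dsim_ninja, G2 and S-element had more antisense than sense in Input and a lower ratio in CG9754-IP, at −0.85, −0.87 and −0.34. The jockey-type LINE G2 had 36.4 and 40.6 RPM antisense in Piwi-IP against 60.0 and 73.7 RPM in CG9754-IP, a rise of its major strand. S-element is a weak case, since Input was 44.9% and 45.6% sense, CG9754-IP 46.4% and 46.7%, and Piwi-IP 55.0% and 51.8%.

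Of the 19 TEs without a called ratio, several had values that were close in all libraries. The sense share of the P-like DNA transposon 1360 was 63.1% and 65.3% in Piwi-IP and 63.5% and 65.7% in CG9754-IP (log2 ratio difference 0.03 ± 0.14 SE). Hobo, a DNA transposon, had 43.4% and 43.3% against 41.5% and 44.1% (−0.03), and the LTR element Circe had 98.1% and 97.9% against 98.1% and 97.7% (−0.08). Circe shows that a strong strand bias in Input did not always go with a shift.

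Antisense levels were mostly lower and sense levels more often higher in CG9754-IP. On the antisense strand 7 of 75 TEs tested were higher (9.33%) and 40 lower (53.3%), with a median log2 difference of −0.38. Scaling all libraries to 1 common TE total gave 16 and 16 with a median of −0.03, and scaling by the median ratio over TEs gave 10 and 26 with −0.16. The surplus of lower antisense calls was smaller by the median ratio and absent on the common TE total. On the sense strand 24 of 53 were higher (45.3%) and 12 lower (22.6%), with a median of 0.15, and on the common TE total 29 were higher and 7 lower, with 0.49. The ratio compares strands within a library, and its counts were 49 and 16 on the common TE total. Because the sense filter takes the mean of all 6 libraries, some TEs were tested only through their level in CG9754-IP, which makes a higher call more likely among them.

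Sense small RNAs rose and antisense ones fell in the same element for 14 of the 45 TEs tested on both strands. These were 17.6, 297, 412, Doc, flea, gypsy4, HMS-Beagle2, McClintock, mdg1, Quasimodo, rover, Stalker, Stalker2 and Stalker4. All but Doc, a LINE, are LTR elements. On the common TE total 14 kept the sense call but only 6 the antisense call, the exceptions being 297, Doc, flea, gypsy4, HMS-Beagle2, McClintock, Stalker and Stalker4, and HMS-Beagle2 then had a small positive antisense difference (log2 0.09). The sense means of 412, gypsy4, HMS-Beagle2 and rover passed the filter only through CG9754-IP, so their sense rises were favoured by the filter. With a filter of 100 RPM only Doc, Stalker and Stalker4 were tested on the sense strand, and these 3 had both calls. Both calls held in 8 of the 14 without Piwi-IP replicate 1 and in 10 without Piwi-IP replicate 2. In 17.6 the sense level was 60.5 and 56.4 RPM in Piwi-IP against 183 and 167 RPM in CG9754-IP, while antisense was 7510 and 7415 against 4461 and 4019 RPM. In Doc, sense was 258 and 266 against 345 and 362 RPM and antisense 2360 and 2347 against 1666 and 1781 RPM. Stalker and Stalker4 had nearly the same sense values in every library, 191 and 191 RPM in CG9754-IP replicate 1 for example, so they may share reads and should be read as 1 element.

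A further 7 TEs rose on the sense strand with no antisense call: blood, F-element, gypsy, gypsy3, gypsy6, HMS-Beagle and R1A1-element. The sense means of HMS-Beagle and R1A1-element passed the filter only through CG9754-IP, so their sense rises were favoured by the filter. Gypsy sense small RNAs were at 65.3 and 69.8 RPM in Piwi-IP and 696 and 790 RPM in CG9754-IP, while its antisense levels of 15594 and 15248 against 15292 and 19026 RPM overlapped. Its antisense difference was called as higher on the common TE total (log2 0.49, limma adjusted p = 0.0251) and without CG9754-IP replicate 1 (0.30). Copia, springer and the foldback element FB4 rose on both strands, and G4, a LINE, fell on both, though its sense call was lost in 10 of the 14 alternative fits that tested it. Antisense fell alone in 3S18, Ivk, Juan and mdg3; in mdg3, an LTR element, it was 443 and 403 against 147 and 146 RPM beside sense levels of 86.4 and 95.3 against 105 and 75.2 RPM. Circe, invader2, invader3 and Transpac fell on the sense strand with no antisense call, though Circe lost its call in 3 of the 15 alternative fits.

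**Figure D3:**
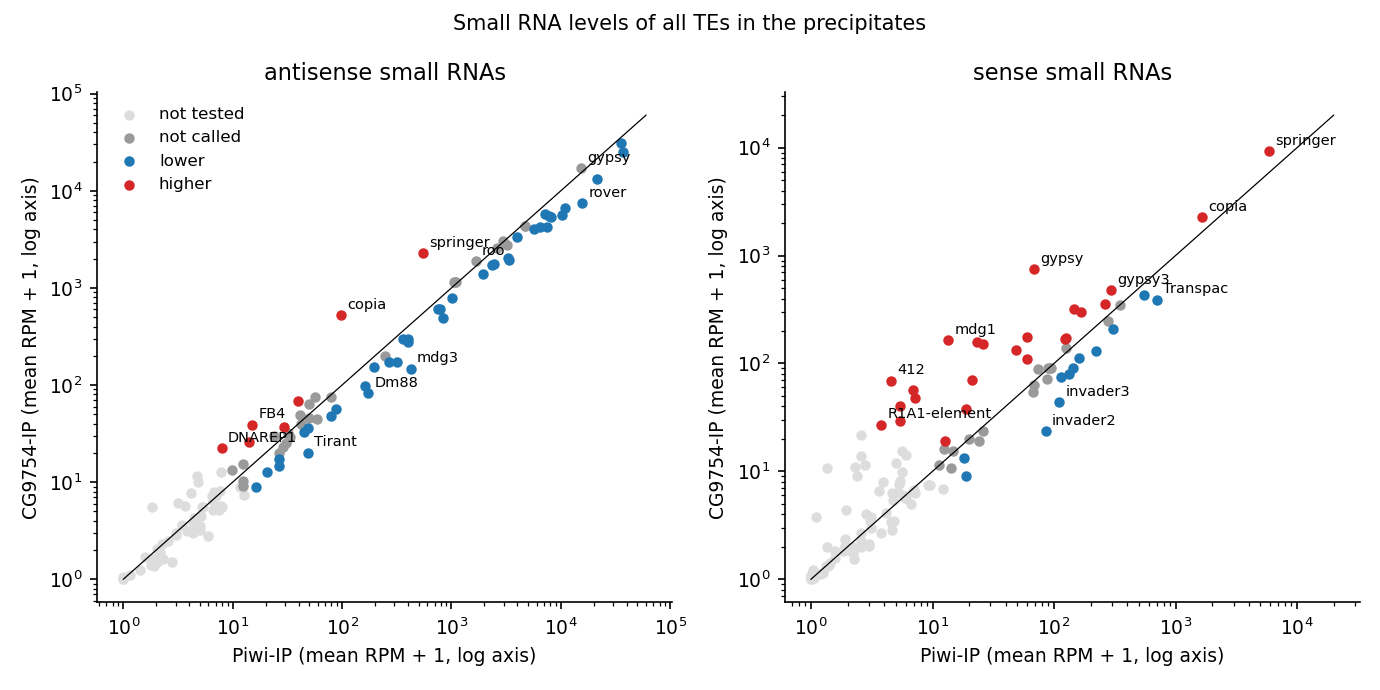
Mean level in CG9754-IP against that in Piwi-IP for 124 TEs (RPM + 1, log axes; 1 point per TE, n = 2 libraries per mean), antisense left and sense right, with the line of equal levels and colours for the limma call on that strand. Antisense points follow the line, most of them slightly below it, with copia and springer above; sense points spread farther, from gypsy, mdg1 and 412 above to invader2 below.

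The antisense order of TEs was nearly the same in both precipitates, and the sense order was less alike among the TEs tested. Over the 75 TEs tested, Spearman's rho between antisense levels was 0.999 between the Piwi-IP libraries, 0.989 between the CG9754-IP libraries and 0.971 to 0.979 between a library of each. Over the 53 tested on the sense strand it was 0.995, 0.980 and 0.737 to 0.766. Of the 24 called higher on the sense strand, 6 passed the filter only through CG9754-IP, 412 and R1A1-element among them. Such a selection can lower rho between the precipitates, and rho without these TEs was not computed. These are descriptions across TEs within single libraries, and TEs are not independent replicates.

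By class, the median log2 ratio difference was highest in the gypsy group, near 0 in DNA transposons and BEL/Pao elements, and lowest in the copia-type elements. The counts below stand beside 58.4% higher and 20.2% lower over all 89 TEs. In the gypsy group, the retrovirus-like elements around gypsy, 12 of 13 TEs tested had a higher ratio and 1, springer, a lower one, with a median log2 difference of 2.95 beside 0.61 over all 89. Among the other Ty3/gypsy elements 18 of 29 were higher and 6 lower, with 0.95, shares near those over all TEs. Of the LINE elements outside telomeres, 15 of 21 were higher and 2 lower, with 0.75. All 3 TART elements tested, which are LINEs that maintain chromosome ends, were higher, with a median of 1.64; in TART-C sense was 1.46 and 2.08 RPM in Piwi-IP against 9.83 and 11.1 RPM. Of 14 DNA transposons 2 were higher and 6 lower, with −0.09, and of 6 BEL/Pao elements 1 was higher and 1 lower, with −0.09. Copia and 1731 were lower and Dm88, mostly antisense, higher among the 3 copia-type TEs, with −1.66. The classes differ in their strand bias, so class and bias in Input cannot be told apart from these counts.

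TEs whose piRNAs are commonly found in germ cells were summed to see whether such RNA differed between the precipitates. The 15 members summed to 6187 and 6227 RPM antisense in Piwi-IP and 5441 and 6038 RPM in CG9754-IP, and to 2913 and 3022 against 3677 and 3245 RPM sense. Of the 10 tested for the ratio, 6 were higher and 3 lower, with a median of 0.84, near the 58.4% and 20.2% over all 89 TEs. The I-element, a LINE of this list that is known for hybrid dysgenesis, was 3.39% and 3.85% sense in Piwi-IP and 10.3% and 16.6% in CG9754-IP (1.77). Copia and Transpac are in the list as well, and the part of germline small RNA in the shifts was not tested.

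The difference between the summed sense levels came mostly from 3 elements. The sum over all TEs was 13234 and 13051 RPM in Piwi-IP and 18965 and 18208 RPM in CG9754-IP. The mean rose by 5444 RPM, made of rises of 6505 RPM in 66 TEs and a summed change of −1061 RPM in 56. Springer alone added 3401 RPM (52.3% of the rises), gypsy 675 RPM (10.4%) and copia 622 RPM (9.56%). Gypsy3, gypsy6, mdg1, blood, F-element, 297 and 17.6 added between 116 and 184 RPM each. The largest fall was that of Transpac, −309 RPM (29.1% of the falls), followed by Circe at −116 RPM and gypsy12 at −97.6 RPM.

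The antisense sums were 238542 and 236313 RPM in Piwi-IP, 211663 and 211337 RPM in Input and 181254 and 175180 RPM in CG9754-IP. The difference between the precipitates thus holds a level above Input in Piwi-IP as well as a level below Input in CG9754-IP. From Piwi-IP to CG9754-IP the mean dropped by 59211 RPM, the balance of rises of 4521 RPM in 36 TEs and a summed change of −63731 RPM in 86. The element 412 accounted for −12049 RPM (18.9% of the falls), rover for −8151 RPM, mdg1 for −8062 RPM, Idefix for −4755 RPM and gtwin for −4454 RPM, although gtwin was slightly above Piwi-IP on either other scale (log2 0.15 and 0.023). Rover lost a larger part of its antisense level than 412 or mdg1: its libraries were at 15353 and 15989 RPM in Piwi-IP and 7911 and 7130 RPM in CG9754-IP. Gypsy at 1738 RPM and springer at 1717 RPM were the main rises, though gypsy was not called on this strand. Together these changes put the sense percentage of the TE signal at 5.26 and 5.23 in Piwi-IP and 9.47 and 9.42 in CG9754-IP. Without springer and copia it was 2.31 and 2.33 against 3.94 and 3.78, a smaller difference in the same direction. With 2 libraries against 2, an exact two-sided permutation test cannot give a p below 0.333, and gave 0.333 for this percentage.

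**Figure D4:**
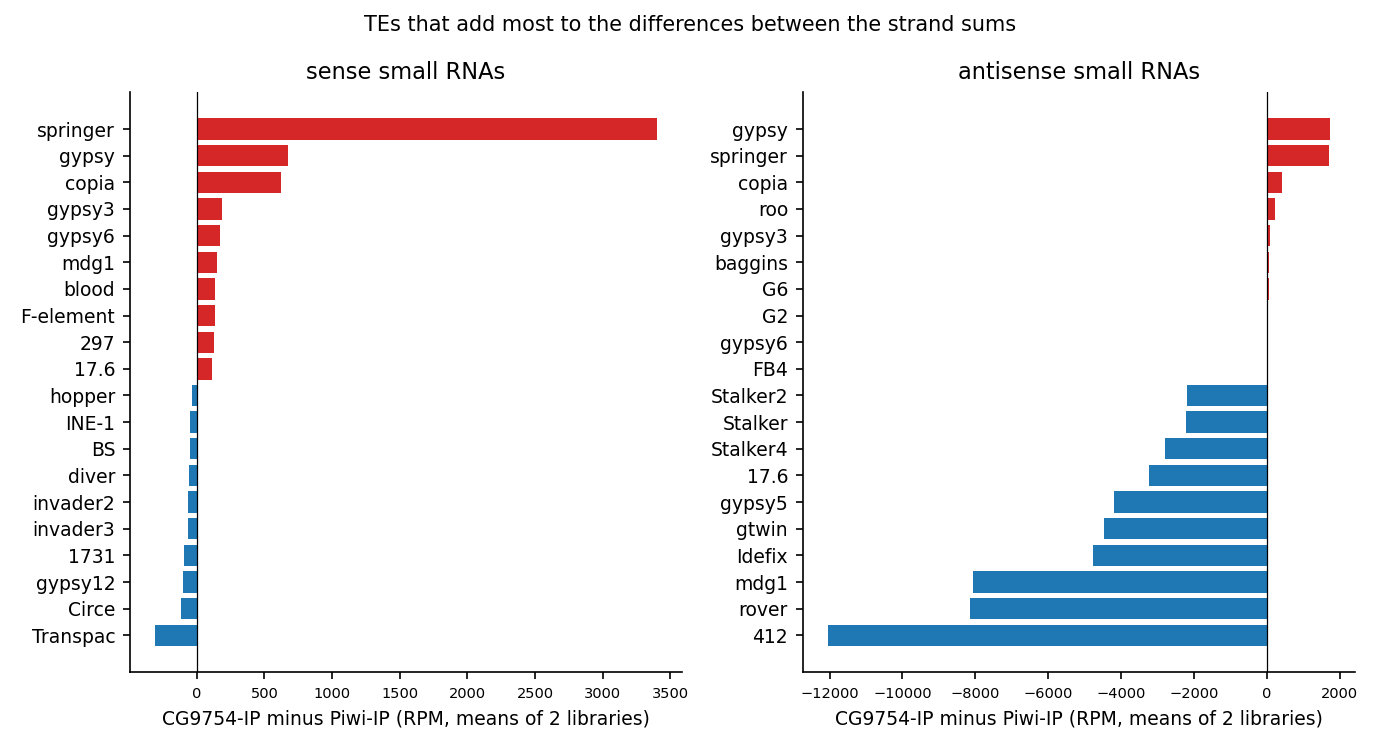
Difference of the mean levels, CG9754-IP minus Piwi-IP in RPM (horizontal axis, bars from 0), for the 10 TEs that add most to the rises (red) and the 10 that add most to the falls (blue) of the sense sum (left) and the antisense sum (right). Springer at 3401 RPM leads the sense rises and 412 at −12049 RPM the antisense falls; the scales of the panels differ.

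Input lay between the precipitates on the antisense strand of elements such as 412, at 33926 and 34672 RPM, where Piwi-IP was the highest. In some other TEs Input lay between them with Piwi-IP the lowest. R1A1-element, a LINE that inserts into ribosomal RNA genes, had sense levels of 12.4 and 12.5 RPM in Input, 3.52 and 2.08 in Piwi-IP and 28.9 and 23.2 in CG9754-IP (log2 difference from Piwi-IP 2.85 ± 0.25 SE, limma adjusted p = 4.4e-11). Its sense mean passed the filter only through CG9754-IP, so its sense call was favoured by the filter. R2-element, another LINE of the ribosomal RNA genes, was below the filter, with 3.92 and 3.91 RPM in Input, 0.332 and 0.4002 RPM in Piwi-IP and 12.2 and 7.30 RPM in CG9754-IP. In both, a ratio of CG9754-IP to Piwi-IP holds a low level in Piwi-IP as well as a high one in CG9754-IP. FB4 antisense levels were 30.2 and 29.3 RPM in Input, 14.2 and 13.8 in Piwi-IP and 41.3 and 34.8 in CG9754-IP. FB is a related foldback element that may share reads with FB4. It had 12.4 and 12.7 RPM antisense in Input, 3.32 and 4.16 in Piwi-IP and 10.9 and 10.3 in CG9754-IP, so on this strand Input was the highest. FB sense levels were 9.91 and 8.35 RPM in Input, 4.85 and 4.40 in Piwi-IP and 15.8 and 13.1 in CG9754-IP, with Input between. FB was tested for the ratio only.

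The telomeric elements HeT-A and TAHRE were below the filters on both strands. HeT-A antisense was 2.19 and 2.16 RPM in Piwi-IP and 5.55 and 4.58 RPM in CG9754-IP, beside 2.12 and 2.74 RPM in Input. For TAHRE the values were 0.863 and 0.800 RPM in Piwi-IP and 4.67 and 4.43 RPM in CG9754-IP, beside 1.17 and 1.57 RPM in Input. Both were mostly sense in Piwi-IP, so their untested shift was also toward the rare strand. P-element and Helitron were listed at 0 on both strands in every library.

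The CG9754-IP libraries differed from each other more than the Piwi-IP libraries did. On the antisense strand 8 of 75 TEs differed by over 1.5-fold between the CG9754-IP libraries, 7 of them higher in replicate 1, against 0 between the Piwi-IP libraries and 1 between the Input libraries. On the sense strand the counts were 5 of 53, all higher in replicate 1, against 0 and 0. The median absolute log2 gap between libraries was 0.22 in CG9754-IP and 0.05 in Piwi-IP on the antisense strand, and 0.27 and 0.09 on the sense strand. Since limma pools the spread over the groups, the quieter libraries lower the estimate that applies to CG9754-IP.

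For 3 values the CG9754-IP libraries lay on opposite sides of Piwi-IP by over 1.2-fold. Roo, the most abundant BEL/Pao element, had antisense levels of 2523 and 1260 RPM against 1649 and 1675 RPM in Piwi-IP, and its sense share was 12.7% and 20.2% against 17.4% in both. Without CG9754-IP replicate 1 its antisense log2 difference was −0.40, and without replicate 2 it was 0.60, so its direction rests on the library chosen. Invader2 antisense was the second such value, as given above, and hopper2 sense, at 14.3 and 6.79 RPM against 10.4 and 10.2 RPM, the third. Quasimodo, a gypsy-group element, had sense levels of 102 and 36.9 RPM in CG9754-IP against 20.9 and 19.6 RPM in Piwi-IP, so both libraries were higher but by very different amounts.

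**Figure D5:**
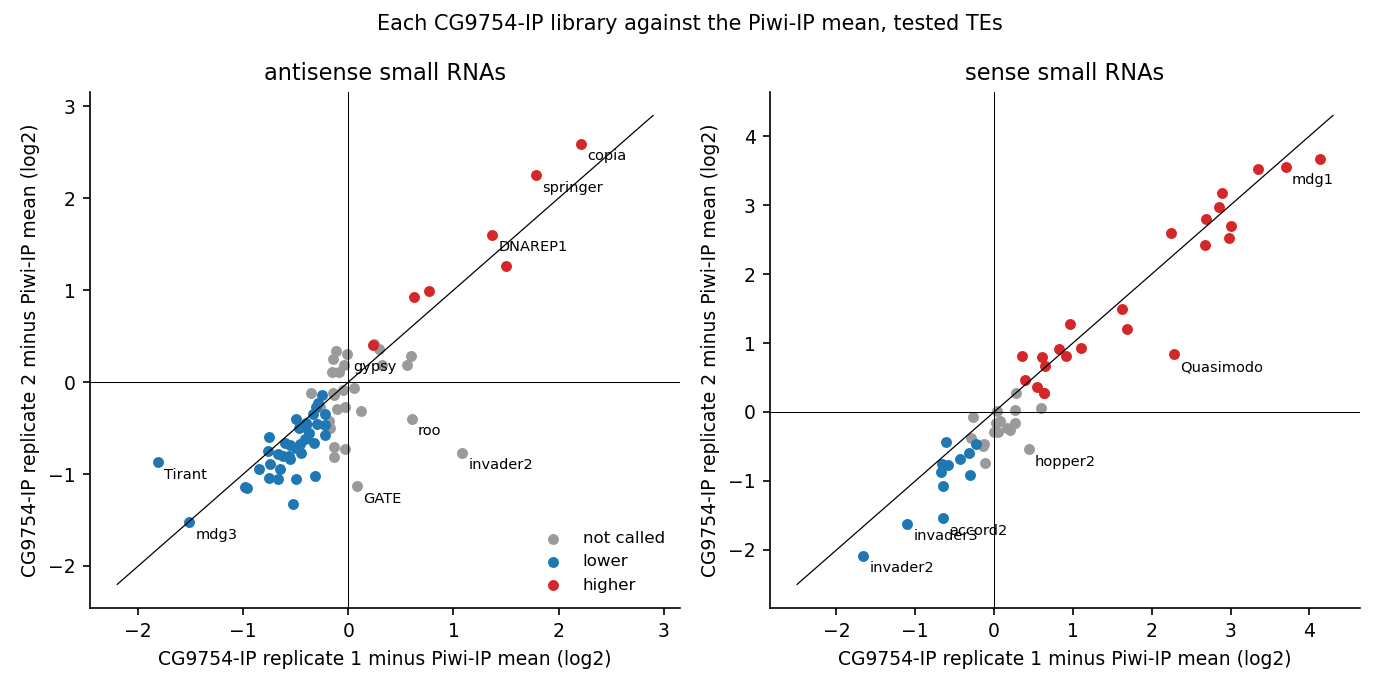
Each CG9754-IP library minus the mean of the Piwi-IP libraries on the log2(RPM + 1) scale, replicate 1 on the horizontal and replicate 2 on the vertical axis, for the 75 TEs tested on the antisense strand (left) and the 53 on the sense strand (right), coloured by limma call. Points near the diagonal gave the same difference in both libraries; roo, invader2 and hopper2 are among those in the quadrant where the libraries disagree in direction, and Quasimodo lies far below the diagonal.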

How the data were processed

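The deposited table lists sense and antisense small RNA values of 124 TEs, with 6 columns a strand that name the Input, Piwi-IP and CG9754-IP libraries. No unit stands in its header; the authors' deposited values were taken as RPM, since within a library all of them were whole multiples of a single step (tolerance 0.02 reads). Per the submitters' processing notes, the tools were Bowtie 0.12.7, SAMtools 0.1.16, cutadapt 1.0 and bedtools 2.16.1, with dm3 as the build; their roles are not given. Read sizes, mismatches and the treatment of reads that match several TEs are not given in the sources used here, and related elements may share reads. Floors cover counting error only.

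The 6 libraries were fitted by group with limma 3.58.1 in R 4.3.3 (lmFit, eBayes with a trend, two-sided, Benjamini-Hochberg adjusted over all TEs tested of a measure), and the contrast was CG9754-IP minus Piwi-IP. The script was tested on simulated data for the recovery and sign of known changes, and no limit was set on its false calls. Strand shares were computed from the RPM without a pseudocount. Tables and plots were made with pandas 2.3.3 and matplotlib 3.10.9 in Python 3.11.15. The comparison, the TE classes, the bins and the germline list were chosen with earlier results of these data known. TEs named are, for each measure, the 10 largest called rises and falls with groups apart, the 10 most abundant TEs per strand, the 10 largest contributions to each sum, those with the largest replicate gaps, and gypsy, ZAM, Idefix, gtwin, mdg1, 297, HeT-A, roo and I-element; others were named after their values were seen. No column of other samples was in the table. Element sequences and the table of cluster windows were not used here.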

Additional observations from a re-analysis of the deposited data

How the results depend on the processing

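The main limits are 2 libraries a group, the unknown origin of the replicates, the lack of a mock precipitate here and the wider spread of CG9754-IP. Levels under 0.115 to 0.240 RPM cannot be told from 0. Results are given as higher and lower calls. The bins by strand bias kept their order of medians under every alternative run. The share of the rare strand was higher in both CG9754-IP libraries for 66 of 89 TEs. It was so for 76 of 122 with no filter, a smaller part of the TEs, and for 51 of 60 with a filter of 100 RPM. Without any 1 of the 4 libraries, the share was higher in those that remained for 67 to 71 of 89. The higher ratio calls in the bin of at least 99% antisense ranged from 23 to 27, and the lower ones under 50% from 10 to 16.

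Antisense calls were 11 higher with no filter, 2 higher with a filter of 100 RPM, 16 higher and 16 lower on a common TE total, and 26 lower by the median ratio. Sense calls were 9 higher and 7 lower with a filter of 100 RPM and 7 lower on a common TE total. Ratio calls were 11 lower with a filter of 100 RPM, and the median ratio difference was 0.44 with a pseudocount of 10. Leaving out each library gave 6 to 13 higher and 26 to 52 lower antisense calls, 20 to 28 and 10 to 20 sense calls, and 41 to 55 and 11 to 19 ratio calls; the lowest antisense counts came without either Piwi-IP library (26 lower) and the highest without CG9754-IP replicate 1 (52 lower). The antisense percentage of the TE signal differed by −4.20 points, and by −1.54 without springer and copia. With each library left out in turn, the median log2 difference ranged from −0.47 to −0.27 on the antisense strand. It ranged from 0.03 to 0.28 on the sense strand and from 0.55 to 0.71 for the ratio. Log2 differences turned positive on the antisense strand with the common TE total for blood (0.21), gtwin (0.15), gypsy2 (0.060), HMS-Beagle2 (0.093), jockey (0.0028), opus (0.062), Rt1b (0.34) and TART-B (0.0086), and by the median ratio for gtwin (0.023). Roo sense turned to 0.32 and 0.19 on these scales. Over the libraries left out, roo antisense ranged from −0.40 to 0.60, invader2 antisense from −0.77 to 1.09, F-element antisense from −0.16 to 0.11, G6 antisense from −0.14 to 0.25 and hopper2 sense from −0.54 to 0.44. The causes were not tested. Of 3160 combinations of a TE, a measure and an alternative, 228 lost the call and 75 gained one; on the ratio, S-element, Bica, Tc1 and invader4 lost theirs in 10 of the 14 alternatives that tested them.

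The labels do not say whether libraries with the same number share more than that number. With the replicate block, 6 antisense TEs were higher and 39 lower, 24 and 13 on the sense strand and 52 and 16 for the ratio. Correlations of the gaps between same-numbered libraries were −0.13 to 0.26. The count tests edgeR and DESeq2, planned as alternatives, were not run: the deposited values are RPM, and the columns hold too few low values to check reads recovered from them.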
